A study of Mus musculus with 12 samples.

Results

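Motile cilia beat with an axoneme of microtubule doublets driven by dynein arms. In the brain, ependymal cells line the ventricles and carry tufts of such cilia, and choroid plexus cells carry them too, while astrocytes and neural stem cells bear a primary cilium that does not beat. The genes described here are the 67 protein coding entries of the deposited table whose names mark them as parts or regulators of the motile axoneme, out of 55862 entries, 55421 of them with a gene name and 21926 protein coding. They were chosen by name alone: dynein heavy, intermediate and light chains (Dnah, Dnai, Dnali1), tektins (Tekt), radial spoke proteins (Rsph), the nexin-dynein regulatory complex (Drc), cilia and flagella associated proteins (Cfap), the transcription factor gene Foxj1 and the membrane protein gene Tmem212. The names Dnaic1 and Dnaic2, which the table uses for the intermediate chains of the outer arm, fall outside that rule and were counted with other axonemal genes below.

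RNA sequencing covered 12 libraries of C57BL/6 mouse brain cells in 4 groups of 3. The A-iSC group held cells derived from astrocytes by 5 days of incubation as 3D spheres. P56-NSC and P0-NSC were neural progenitors taken from the brain and used as positive controls. Their labels give no further culture or sorting step. The names P56-NSC and P0-NSC read as postnatal days, adult and newborn, and by that reading these groups differ in age. The AST group held the astrocytes at 0 days of incubation as the negative control. No allele or agent is named in the labels, and the astrocytes' source and the number of animals behind a library are not given there. Whether the 3 libraries within a group stem from different cultures or animals is not in the labels, so each p-value reflects no more than how far these libraries spread, and that spread may be technical.

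The libraries held 17077780 to 24452419 reads, and a single read over 1 kb of gene length corresponded to 0.0343 to 0.0623 FPKM (fragments per kilobase, scaled to library size), a limit that covers counting error only. The library groups differed in markers of other cells. The summed level of 10 choroid plexus markers was 5.09 to 6.25 FPKM in A-iSC, 1503 to 3193 in P56-NSC, 751 to 3855 in P0-NSC and 7.58 to 9.22 in AST, with no marker at 0 in all libraries of a group. Most of this sum was Ttr alone in P56-NSC (1452 to 3120 FPKM) and in P0-NSC (725 to 3747). The sum of 8 oligodendrocyte markers was 73.0 to 92.0 FPKM in A-iSC, 11575 to 13213 in P56-NSC, 27.7 to 40.4 in P0-NSC and 17.9 to 19.96 in AST, where Mobp was at 0. The sum of 9 microglia markers was 3562 to 4840 FPKM in A-iSC, 919 to 1006 in P56-NSC, 166 to 206 in P0-NSC and 299 to 387 in AST. The sum of 10 astrocyte markers was lowest in the group labelled astrocytes, with 1407 to 2721 FPKM in A-iSC, 3186 to 3497 in P56-NSC, 295 to 360 in P0-NSC and 171 to 193 in AST. The sum of 8 neural stem and progenitor markers was lowest in P56-NSC, with 1549 to 2085 FPKM in A-iSC, 243 to 267 in P56-NSC, 897 to 980 in P0-NSC and 2606 to 3577 in AST. Such sums follow their most abundant markers and do not speak for each marker.

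The promoters of ciliary genes often carry an X-box, the paired site that RFX transcription factors bind, and Foxj1 encodes a forkhead factor that acts on many of the same genes. RefSeq promoter windows (GRCm38.p6, 250 bases before to 50 after the start) were found for 55 of the 67 genes. An X-box, searched on both strands as the half-site GTTNCC, 2 bases of any kind and the reverse complement GGNAAC, with at most 1 mismatch among the 10 fixed letters, lay in the windows of 8 of these 55 genes (14.5%), against 782 of 27025 genes with a window (2.89%). The forkhead word GTAAACA, searched on both strands, lay in 4 of the 55 (7.27%), against 4.05% of all genes with a window, and 0 of the 55 held both, against 0.126% of all genes with a window. A match is a description of letters and not a site of binding. The stretches that hold an X-box before the start are shown because they carry the word shared by these genes. The capitals mark the X-box, and bases inside annotated exons are left out or, where the match itself lies in an exon of GENCODE M21, cut to 30 bases around it.
Cfap298, chr16:90935016-90935045, minus strand, in an exon: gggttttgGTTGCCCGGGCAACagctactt
Cfap206, chr4:34730207-34730306, minus strand: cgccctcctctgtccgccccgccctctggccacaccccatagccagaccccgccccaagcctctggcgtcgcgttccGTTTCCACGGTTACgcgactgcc
Cfap44, chr16:44394699-44394795, plus strand: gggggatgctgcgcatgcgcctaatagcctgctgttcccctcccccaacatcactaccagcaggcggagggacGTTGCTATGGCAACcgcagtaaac
Cfap45, chr1:172521103-172521132, plus strand, in an exon: gttcttggGTTGCTATGGTAACgcgtcagc
Cfap97d2, chr8:13705789-13705888, plus strand: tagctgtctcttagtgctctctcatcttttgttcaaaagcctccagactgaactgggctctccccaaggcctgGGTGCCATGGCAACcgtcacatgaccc
Drc1, chr5:30281293-30281387, plus strand: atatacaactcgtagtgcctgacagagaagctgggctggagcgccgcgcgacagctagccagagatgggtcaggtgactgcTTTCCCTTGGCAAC
Tekt4, chr17:25471385-25471484, plus strand, in an intron: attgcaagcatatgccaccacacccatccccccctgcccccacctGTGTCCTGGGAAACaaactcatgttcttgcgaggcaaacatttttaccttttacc
The word of Cfap298 had 0 mismatches and began 188 bases before the RefSeq start, and those of Cfap206, Cfap44, Cfap45, Cfap97d2 and Drc1 had 1 mismatch each and began 19 to 27 bases before it. Of the 8 genes 6 were Cfap genes.

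Across the 4 groups the axonemal genes stood highest in P56-NSC and lowest in AST. The mean level was highest in P56-NSC for 53 of the 67 genes, in A-iSC for 6, in P0-NSC for 5 and in AST for 3, and it was lowest in AST for 52. Genes with a group mean of at least 1 FPKM numbered 37 in A-iSC, 56 in P56-NSC, 45 in P0-NSC and 19 in AST. The median gene had a mean of 1.14 FPKM in A-iSC, 3.57 in P56-NSC, 1.57 in P0-NSC and 0.209 in AST. The order P56-NSC, P0-NSC, A-iSC, AST from high to low held for 35 genes, and P56-NSC, A-iSC, P0-NSC, AST for 12. All of these levels follow the deposited scaling, and the share of all genes with such orders was not counted. Deposited values were 1.28 to 1.34 times those scaled by total reads in P56-NSC and 1.02 to 1.06 times in AST. In A-iSC they were 0.871 to 0.907 times, and in P0-NSC 0.821 to 0.872 times. In bulk RNA a lower share of ciliated cells and less of these RNAs per cell cannot be told apart.

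**Figure D1:**
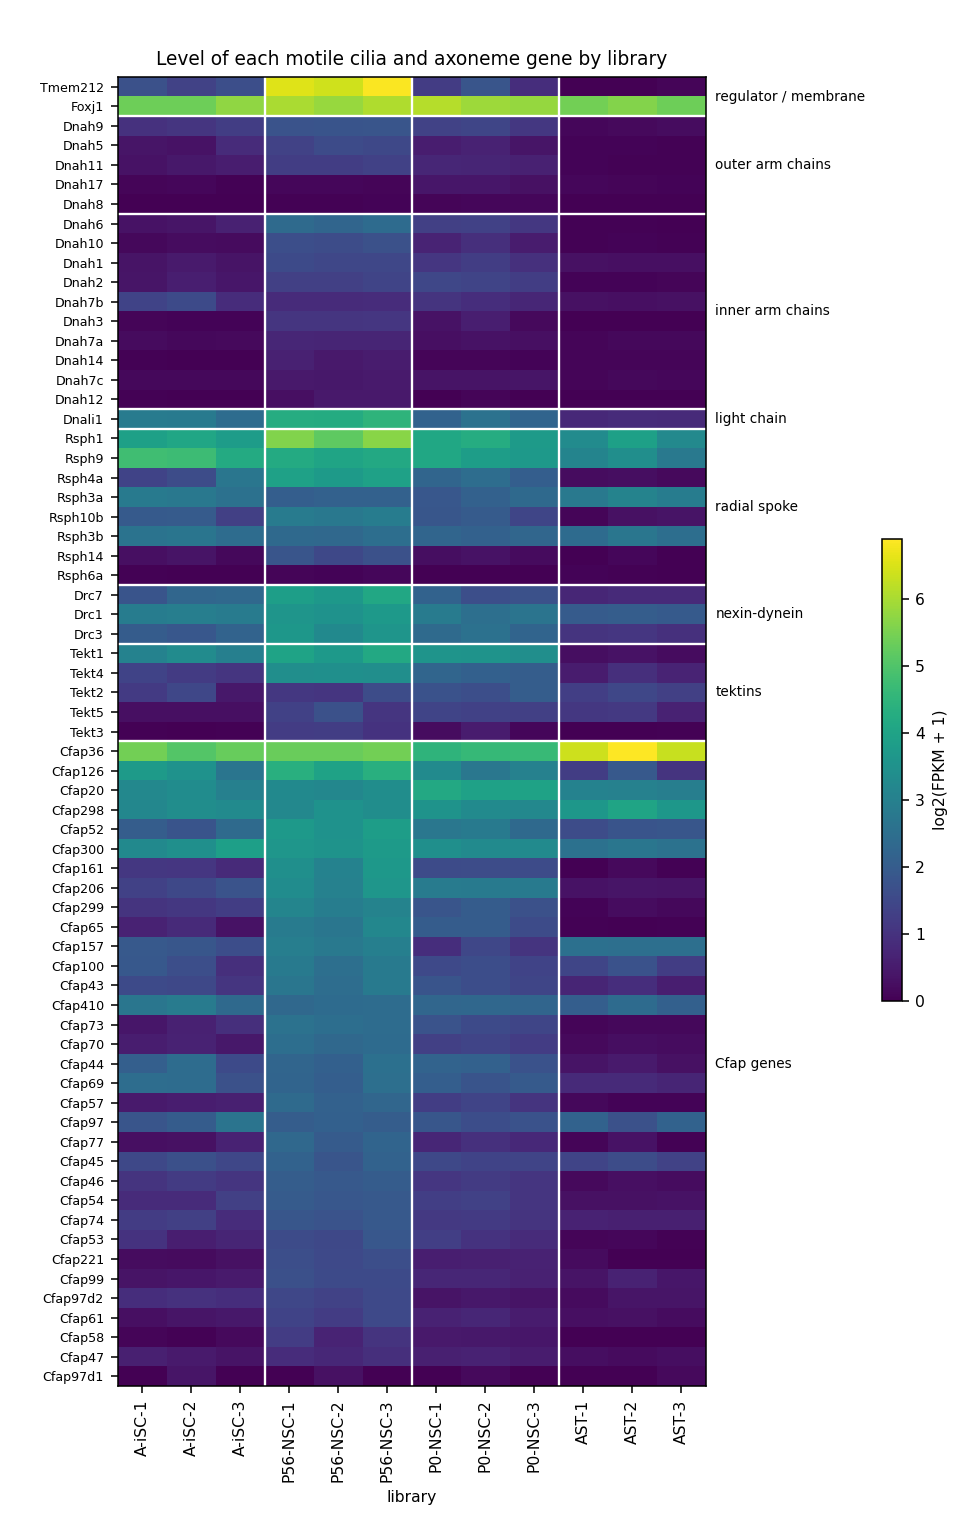
Level of each of the 67 genes (rows, grouped by role and ordered by their highest group mean) in each of the 12 libraries (columns), as log2(FPKM + 1). Most rows are brightest in the P56-NSC columns and darkest in the AST columns. Foxj1 and Cfap36 are bright in all 12. Under the deposited scaling 53 genes have their highest mean in P56-NSC.

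A gene was tested where it reached 1 FPKM in at least 3 libraries, and was called at a limma adjusted p (Benjamini-Hochberg over all 15747 genes tested) below 0.05. Log2 changes are of FPKM + 1, so they understate the change of low genes, and they are given with their standard errors. Of the 67 genes 57 were tested. The other 10 (Cfap47, Cfap58, Cfap97d1, Dnah7a, Dnah7c, Dnah8, Dnah12, Dnah14, Dnah17 and Rsph6a) did not reach the level. Tekt3 lay just inside it, with 1.01 FPKM in the third highest of its libraries, and Cfap47 just outside, with 0.688. Genes that passed only through a high group had to differ, so the counts below describe the set and do not test it.

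Foxj1, the transcription factor gene that starts the motile cilia programme, was high in every group. It lay at 39.9, 40.6 and 52.2 FPKM in A-iSC, 63.6, 56.2 and 66.01 in P56-NSC, 68.3, 57.6 and 54.4 in P0-NSC and 41.997, 47.6 and 40.4 in AST. The A-iSC and AST libraries overlapped, and both groups lay below all P56-NSC and P0-NSC libraries. The log2 change in A-iSC against AST was 0.02 ± 0.13 (limma adjusted p = 0.895); it was -0.099 without A-iSC 3 and -0.025 without AST 3, and of the other settings it was called only after quantile normalization (0.39, limma adjusted p = 0.0345). Foxj1 was lower in A-iSC than in P56-NSC by the deposited scaling (log2 change -0.48 ± 0.13, limma adjusted p = 0.00597), and the change was 0.065 when libraries were scaled by total reads. Its level in P56-NSC and P0-NSC was above AST (log2 changes 0.51 and 0.46, limma adjusted p = 0.00355 and 0.00642); under total reads the first was 0.17 and not called (limma adjusted p = 0.273).

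Tmem212, which encodes a membrane protein used as a marker of ependymal cells, had the largest change of the 57 tested genes in P56-NSC against AST. It lay at 2.29, 1.59 and 2.14 FPKM in A-iSC, 93.4, 82.3 and 114 in P56-NSC, 1.34, 2.49 and 0.862 in P0-NSC and 0, 0 and 0.0752 in AST. All P56-NSC libraries lay far above the rest, and A-iSC and P0-NSC overlapped with each other. The A-iSC mean was 2.08% of the P56-NSC mean. In AST 1 read was recovered over the 3 libraries, against 101 in A-iSC. The log2 change was 1.54 ± 0.20 in A-iSC against AST and 5.28 ± 0.20 in P56-NSC against P0-NSC (limma adjusted p = 3.61e-05 and 6.18e-10). With 1 read in AST the size of the first change depends on the pseudocount.

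Outer arm dyneins supply most of the force of the ciliary beat. Dnah9, a heavy chain of the outer arm, had 0.971, 1.07 and 1.401 FPKM in A-iSC, 2.36, 2.43 and 2.54 in P56-NSC, 1.56, 1.69 and 1.17 in P0-NSC and 0.08601, 0.127 and 0.169 in AST. Dnah5, its partner heavy chain, had 0.314, 0.274 and 0.792 FPKM in A-iSC, 1.57, 1.96 and 1.84 in P56-NSC, 0.456, 0.584 and 0.323 in P0-NSC and 0.0458, 0.040998 and 0.0241 in AST. Dnah11, which takes the place of Dnah9 near the base of respiratory cilia, had 0.257, 0.369 and 0.467 FPKM in A-iSC, 1.38, 1.38 and 1.51 in P56-NSC, 0.671, 0.639 and 0.5399 in P0-NSC and 0.0454, 0.0273 and 0.0335 in AST. For these 3 genes all P56-NSC libraries were the highest and all AST libraries the lowest, and all 3 were higher in A-iSC than in AST (log2 changes 0.93, 0.48 and 0.40, limma adjusted p = 9.47e-06, 0.00644 and 0.00098). They were also higher in P56-NSC than in P0-NSC (log2 changes 0.48, 0.94 and 0.59, limma adjusted p = 0.00112, 3.28e-05 and 3.26e-05), though under total reads Dnah9 was not called (0.069, limma adjusted p = 0.592). The other outer arm chains, Dnah8 and Dnah17, known from sperm flagella, had means of at most 0.304 FPKM.

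Inner arm dyneins shape the bend of the cilium. Dnah6 had 0.266, 0.318 and 0.546 FPKM in A-iSC, 4.201, 3.77 and 4.32 in P56-NSC, 1.45, 1.499 and 1.16 in P0-NSC and 0.0225, 0.0372 and 0.0122 in AST. Dnah10 had 0.117, 0.1804 and 0.151 FPKM in A-iSC, 2.12, 2.01 and 2.29 in P56-NSC, 0.617, 0.912 and 0.438 in P0-NSC and 0.02595, 0.0521 and 0.0268 in AST. Dnah1 had 0.297, 0.4095 and 0.2803 FPKM in A-iSC, 1.92, 1.76 and 1.76 in P56-NSC, 1.11, 1.38 and 0.938 in P0-NSC and 0.238, 0.208 and 0.206 in AST. All 3 stood in the order P56-NSC, P0-NSC, A-iSC, AST under the deposited scaling, with no overlap between the groups. For Dnah1 the change in P56-NSC against P0-NSC was 0.024 under total reads and not called (limma adjusted p = 0.832). Dnah6 was higher in A-iSC than in AST (log2 change 0.42 ± 0.10, limma adjusted p = 0.00268), whereas Dnah10 and Dnah1 were not called (0.15 and 0.13, limma adjusted p = 0.211 and 0.244). With a pseudocount of 0.1 FPKM Dnah10 was called (0.88, limma adjusted p = 0.00778), voom on recovered reads called both (limma adjusted p = 0.00273 for Dnah10 and 0.0242 for Dnah1), and after quantile normalization the change of Dnah1 was -0.087. Of the 10 inner arm chains 6 were tested. Called higher were 3 in A-iSC against AST (all genes tested 28.1%), 6 in P56-NSC against AST (37.1%), 6 in P0-NSC against AST (35.9%) and 4 in P56-NSC against P0-NSC (35.3%). Dnah7b went against the others, with its highest mean in A-iSC (1.45 ± 0.557 FPKM in A-iSC, 0.804 ± 0.0252 in P56-NSC, 0.868 ± 0.176 in P0-NSC and 0.234 ± 0.0116 in AST, SD, n = 3 each), and its near copies Dnah7a and Dnah7c could share its reads. Its change in A-iSC against P56-NSC (0.42 ± 0.14, limma adjusted p = 0.0233) was 0.36 without A-iSC 1 (0.0773), 0.28 without A-iSC 2 (0.105), and not called without P56-NSC 1 or P56-NSC 2 (0.0555 each). Without A-iSC 1, A-iSC 2 and AST 2 it was 0.029 (limma adjusted p = 0.851), and it was not called with no filter (0.0571) or with only the 2 groups (0.0745).

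Dnali1, the light chain of the inner arm, had 6.23, 6.05 and 4.39 FPKM in A-iSC, 18.3, 17.9 and 21.4 in P56-NSC, 3.504, 5.105 and 3.66 in P0-NSC and 0.727, 0.786 and 0.757 in AST. The groups A-iSC and P0-NSC overlapped, P56-NSC stood above all others and AST below. Dnali1 was higher in A-iSC than in AST (log2 change 1.89 ± 0.14, limma adjusted p = 3.39e-07) and lower in A-iSC than in P56-NSC (log2 change -1.63 ± 0.14, limma adjusted p = 7.88e-07).

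**Figure D2:**
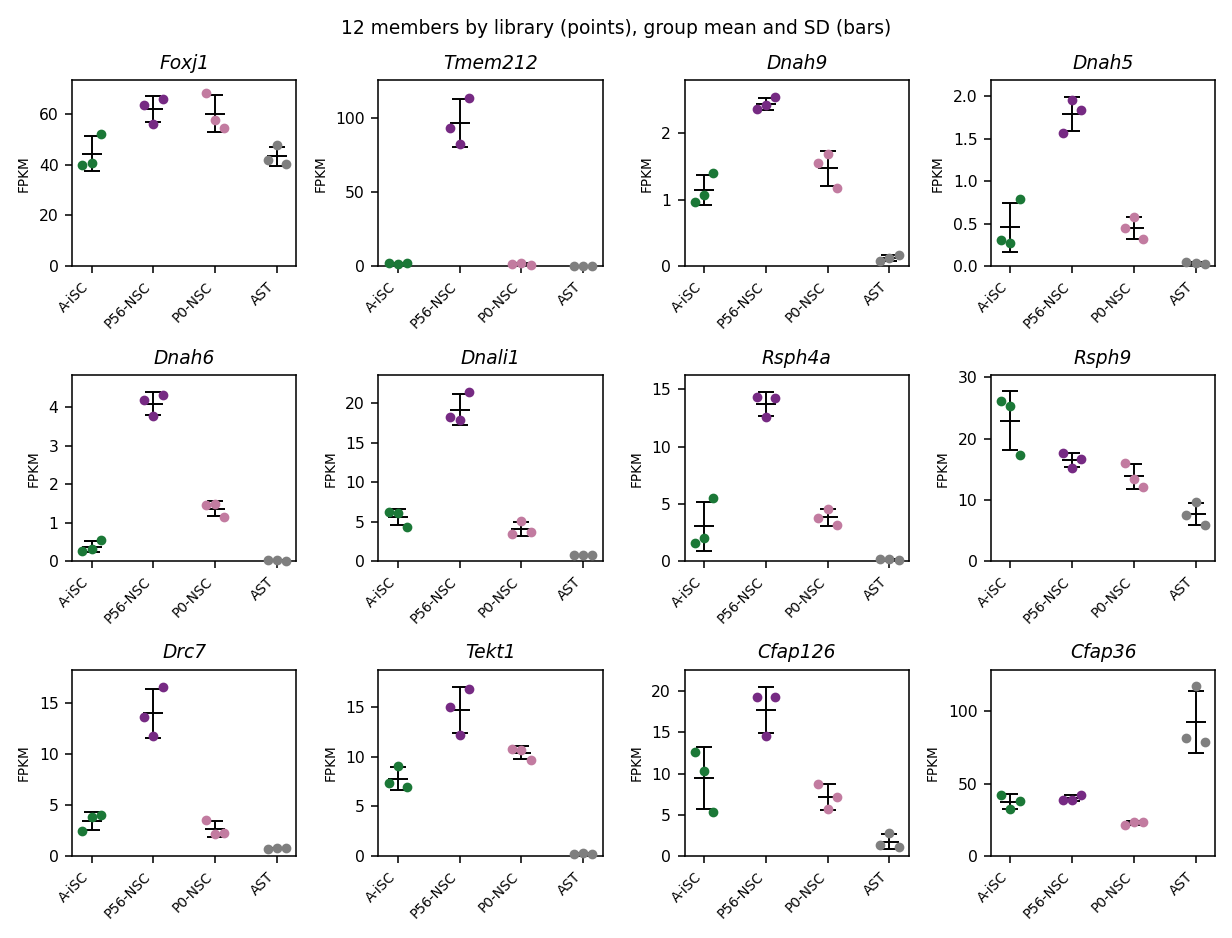
FPKM of 12 genes in each library (points, 3 per group), with the group mean (short line) and SD (bars); each panel has its own axis starting at 0. Foxj1 is high in all groups, Tmem212 stands out in P56-NSC alone, Rsph9 is highest in A-iSC and Cfap36 in AST.

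Radial spokes pass signals from the central pair to the dynein arms. Rsph1, of the spoke head, had 14.03, 15.8 and 13.1 FPKM in A-iSC, 46.5, 35.1 and 50.1 in P56-NSC, 16.3, 18.1 and 12.4 in P0-NSC and 9.04, 14.2 and 8.399 in AST. The change in A-iSC against AST was not called (log2 change 0.44 ± 0.20, limma adjusted p = 0.0742); it was called without AST 2 (0.65, limma adjusted p = 0.0082) and under total reads (0.64, limma adjusted p = 0.0164). Rsph4a, also of the head, had 1.59, 2.04 and 5.52 FPKM in A-iSC, 14.3, 12.5 and 14.3 in P56-NSC, 3.76, 4.55 and 3.14 in P0-NSC and 0.1797, 0.189 and 0.133 in AST. The A-iSC libraries of Rsph4a spread more than those of the other groups, and all of them lay above AST (log2 change 1.67 ± 0.26, limma adjusted p = 0.000186) and below P56-NSC. Rsph10b had 2.86, 2.93 and 1.46 FPKM in A-iSC, 6.35, 5.79 and 6.42 in P56-NSC, 2.59, 2.94 and 1.72 in P0-NSC and 0.0577, 0.239 and 0.278 in AST. For Rsph10b the A-iSC and P0-NSC libraries overlapped, and both groups lay between P56-NSC and AST.

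Rsph9, another head protein, stood in another order. It had 26.2, 25.3 and 17.4 FPKM in A-iSC, 17.6, 15.2 and 16.7 in P56-NSC, 16.04, 13.4 and 12.1 in P0-NSC and 7.59, 9.64 and 5.95 in AST. Its mean was highest in A-iSC, where 2 of 3 libraries lay above all others, and A-iSC exceeded AST (log2 change 1.46 ± 0.18, limma adjusted p = 2.4e-05). Against P56-NSC it was not called (log2 change 0.43 ± 0.18, limma adjusted p = 0.0526), and it was called without A-iSC 3 (0.61, limma adjusted p = 0.00571), without AST 2 (0.0344) and without AST 3 (0.0379); the limma adjusted p ranged over 0.000229 to 0.723 across all other settings. The stalk genes Rsph3a and Rsph3b are near copies that could share reads. Rsph3a had 6.04, 5.72 and 4.96 FPKM in A-iSC, 3.19, 3.41 and 3.38 in P56-NSC, 2.68, 3.37 and 4.07 in P0-NSC and 5.92, 7.49 and 6.396 in AST. Rsph3b had 5.21, 5.43 and 4.44 FPKM in A-iSC, 4.09, 3.98 and 4.601 in P56-NSC, 3.76, 3.41 and 3.801 in P0-NSC and 4.27, 5.46 and 4.58 in AST. Rsph3a was higher in A-iSC than in P56-NSC (log2 change 0.60 ± 0.12, limma adjusted p = 0.00112) and lower in P56-NSC than in AST (-0.81 ± 0.12, limma adjusted p = 7.98e-05).

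The nexin-dynein regulatory complex links neighbouring doublets and turns sliding into bending. Drc1 had 6.42, 6.73 and 6.298 FPKM in A-iSC, 11.1, 10.4 and 12.02 in P56-NSC, 6.32, 4.67 and 5.25 in P0-NSC and 2.96, 3.05 and 2.85 in AST. Drc3 had 3.02, 2.65 and 3.62 FPKM in A-iSC, 11.5, 8.699 and 10.99 in P56-NSC, 4.21, 4.95 and 3.66 in P0-NSC and 1.06, 1.11 and 0.953 in AST. Drc7 had 2.46, 3.86 and 3.99 FPKM in A-iSC, 13.7, 11.8 and 16.6 in P56-NSC, 3.53, 2.16 and 2.296 in P0-NSC and 0.659, 0.776 and 0.775 in AST. All 3 were highest in every P56-NSC library and lowest in every AST library, and A-iSC and P0-NSC overlapped for Drc1 and Drc7 but not for Drc3. They were higher in A-iSC than in AST (log2 changes 0.92, 0.999 and 1.33, limma adjusted p = 8.01e-06, 3.35e-05 and 4.17e-05). Under total reads the change of Drc1 in A-iSC against P56-NSC was -0.20 and not called (limma adjusted p = 0.117).

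Tektins are filaments in the wall of the doublets. Tekt1 had 7.31, 9.08 and 6.92 FPKM in A-iSC, 14.95, 12.2 and 16.8 in P56-NSC, 10.8, 10.7 and 9.62 in P0-NSC and 0.184, 0.274 and 0.166 in AST. Its AST libraries lay far below all others, and its change in A-iSC against AST was the largest of the 57 tested genes (log2 change 2.85 ± 0.12, limma adjusted p = 4.62e-09). Tekt4 had 1.61, 1.28 and 1.102 FPKM in A-iSC, 9.66, 9.73 and 9.52 in P56-NSC, 3.72, 3.32 and 3.11 in P0-NSC and 0.448, 0.914 and 0.6202 in AST. Tekt4 was higher in A-iSC than in AST (0.49 ± 0.12, limma adjusted p = 0.0031; 0.0533 after quantile normalization) and lower than in P0-NSC (-0.91 ± 0.12, limma adjusted p = 2.2e-05). Tekt2, 1.25, 1.77 and 0.353 FPKM in A-iSC, 1.15, 1.08 and 2.01 in P56-NSC, 2.35, 2.15 and 3.06 in P0-NSC and 1.41, 1.74 and 1.47 in AST, followed no such order, and 20.8% of its exonic bases overlap a gene on the other strand. Tekt5 was lower in A-iSC (0.212 ± 0.00693 FPKM) than in AST (0.974 ± 0.354, SD, n = 3 each; log2 change -0.69, limma adjusted p = 0.00281), a call lost without A-iSC 1, A-iSC 2 and AST 2 (-0.61, limma adjusted p = 0.074).

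The 33 Cfap genes are a mixed family named after flagellar proteins. Cfap126, also called Flattop and needed for the placing of basal bodies, had 12.6, 10.4 and 5.34 FPKM in A-iSC, 19.3, 14.5 and 19.3 in P56-NSC, 8.77, 5.65 and 7.14 in P0-NSC and 1.38, 2.78 and 1.06 in AST. Cfap126 was higher in A-iSC than in AST (log2 change 1.91 ± 0.29, limma adjusted p = 0.000123), with A-iSC 3 the lowest of its group. Cfap161 and Cfap52 encode proteins inside the doublet microtubules. Cfap161 had 1.15, 1.12 and 0.761 FPKM in A-iSC, 9.81, 7.27 and 11.75 in P56-NSC, 2.002, 2.01 and 1.99 in P0-NSC and 0.0187, 0.124 and 0.0338 in AST. Cfap52 had 3.12, 2.48 and 4.18 FPKM in A-iSC, 12.1, 10.4 and 13.2 in P56-NSC, 5.63, 6.01 and 4.08 in P0-NSC and 2.06, 2.49 and 2.599 in AST. Cfap161 was near 0 in AST and higher in A-iSC (0.92 ± 0.14, limma adjusted p = 0.000142), whereas Cfap52 was not called in A-iSC against AST (0.32 ± 0.16, limma adjusted p = 0.112); without A-iSC 2 it was (0.45, limma adjusted p = 0.0368).

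Cfap206, known from Tetrahymena as a protein at the base of a radial spoke, had 1.498, 1.83 and 2.42 FPKM in A-iSC, 9.14, 7.12 and 11.2 in P56-NSC, 6.2999, 6.13 and 6.07 in P0-NSC and 0.264, 0.318 and 0.282 in AST. It stood in the order P56-NSC, P0-NSC, A-iSC, AST with no overlap between any groups, and the change in P56-NSC against P0-NSC was 0.49 under the deposited scaling and -0.071 under scaling by total reads. Cfap65, required for sperm flagella, had 0.578, 0.759 and 0.262 FPKM in A-iSC, 6.35, 5.46 and 8.07 in P56-NSC, 3.03, 3.01 and 2.002 in P0-NSC and 0.0229, 0.0126 and 0.0207 in AST. Cfap299 had 1.06, 1.16 and 1.39 FPKM in A-iSC, 7.72, 6.58 and 7.51 in P56-NSC, 2.51, 3.04 and 2.28 in P0-NSC and 0.0412, 0.1703 and 0.112 in AST. Both were near 0 in AST and low in A-iSC, at 8.04% and 16.6% of their P56-NSC means.

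Cfap43, of the complex that tethers an inner arm, had 1.898, 1.84 and 1.09 FPKM in A-iSC, 5.53, 4.48 and 6.16 in P56-NSC, 2.46, 2.08 and 1.697 in P0-NSC and 0.625, 0.8802 and 0.496 in AST. Cfap44, its partner, had a mean of 3.17 ± 1.24 FPKM in A-iSC, 3.97 ± 0.747 in P56-NSC, 3.098 ± 0.691 in P0-NSC and 0.314 ± 0.0895 in AST (SD, n = 3 each). Cfap44 was higher in A-iSC than in AST (log2 change 1.62 ± 0.20, limma adjusted p = 3.05e-05) with A-iSC libraries spread from 1.90 to 4.37 FPKM. Cfap100, known from Chlamydomonas as a modifier of inner arms, had 2.74, 2.15 and 0.914 FPKM in A-iSC, 6.12, 4.76 and 6.07 in P56-NSC, 1.86, 2.09 and 1.61 in P0-NSC and 1.71, 2.36 and 1.37 in AST. Cfap100 was high in P56-NSC, and the other 3 groups overlapped.

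Cfap300 and Cfap298 encode factors that help assemble dynein arms in the cytoplasm. Cfap300 had 8.73, 9.78 and 13.9 FPKM in A-iSC, 11.4, 10.6 and 12.6 in P56-NSC, 9.83, 8.87 and 8.78 in P0-NSC and 4.98, 5.51 and 5.01 in AST. Cfap298 had 8.12, 9.45 and 8.87 FPKM in A-iSC, 8.23, 10.4 and 9.48 in P56-NSC, 10.6, 8.84 and 8.25 in P0-NSC and 11.4, 15.3 and 11.6 in AST. Cfap300 was higher in A-iSC than in AST (log2 change 0.91 ± 0.14, limma adjusted p = 0.000128). Cfap298 was lower (-0.48 ± 0.13, limma adjusted p = 0.00721); that call was lost with scaling by total reads (0.0799), and 44.2% of its exonic bases overlap Gm49727 on the other strand, so their reads cannot be told apart without strand.

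Cfap36, the most abundant gene of the set in AST, is one of the few that stood highest there. It had 42.3, 32.3 and 38.3 FPKM in A-iSC, 39.1, 38.7 and 42.1 in P56-NSC, 21.4, 23.3 and 23.7 in P0-NSC and 81.8, 118 and 78.9 in AST. All AST libraries lay above all others, and A-iSC and P56-NSC overlapped. The log2 change was -1.26 ± 0.15 in A-iSC against AST and -1.95 ± 0.15 in P0-NSC against AST (limma adjusted p = 1.46e-05 and 1.53e-07). Cfap157, a basal body protein of ciliated cells and sperm, had 2.76, 2.58 and 2.08 FPKM in A-iSC, 6.77, 5.92 and 6.86 in P56-NSC, 0.885, 1.76 and 1.06 in P0-NSC and 4.86, 4.77 and 4.69 in AST. It was lower in A-iSC than in AST (-0.74 ± 0.13, limma adjusted p = 0.00053). Cfap20, a doublet seam protein, had 8.27, 9.14 and 6.998 FPKM in A-iSC, 8.66, 8.202 and 9.48 in P56-NSC, 16.8, 14.3 and 14.6 in P0-NSC and 7.34, 7.14 and 6.75 in AST, and Cfap410, known from the base of primary cilia too, had 5.51, 6.27 and 4.08 FPKM in A-iSC, 4.01, 4.31 and 4.42 in P56-NSC, 3.81, 3.96 and 3.76 in P0-NSC and 3.19, 4.26 and 3.32 in AST. Cfap20 was highest in all P0-NSC libraries. Cfap410 was higher in A-iSC than in AST (0.44 ± 0.13, limma adjusted p = 0.0111), a call that was lost without A-iSC 2 (0.0509).

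Apart from the Cfap genes above, the family had group means of at most 4.67 FPKM. Cfap69, of sperm and olfactory cilia, averaged 3.73 ± 1.29 FPKM in A-iSC, against 0.726 ± 0.0748 in AST (SD, n = 3 each; log2 change 1.42, limma adjusted p = 4.56e-05), and 3.84 ± 0.775 FPKM in P56-NSC. Cfap46 had a mean of 1.14 ± 0.147 FPKM in A-iSC, 2.96 ± 0.154 in P56-NSC, 1.17 ± 0.129 in P0-NSC and 0.167 ± 0.0456 in AST, and Cfap54 of 1.01 ± 0.388 FPKM in A-iSC, 2.79 ± 0.151 in P56-NSC, 1.35 ± 0.219 in P0-NSC and 0.253 ± 0.01699 in AST (SD, n = 3 each). For both, A-iSC and P0-NSC overlapped and stood between P56-NSC and AST.

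A-iSC against AST sets the spheres after 5 days of incubation beside the astrocytes at 0 days, and these groups also differed in markers of other cells. Of the 67 genes, 57 of them tested, 34 were called higher (50.7% of the 67) and 4 lower (Cfap36, Cfap157, Cfap298 and Tekt5). Of all genes tested 28.1% were called higher and 30.8% lower. With no filter on low values, so that all 67 were tested, 35 were called higher (52.2%), against 14.2% of all 34776 genes then tested. These include noncoding and low genes, whereas the 67 are all protein coding, so the shares are not of like genes. The median log2 change of the 67 was 0.38, beside 0.00 for all genes tested. At 2-fold or more 11 genes rose and 1 fell, where 9.15% and 9.61% of all genes tested were. By role, 18 of 33 Cfap genes (30 tested) and 3 of 5 outer arm chains (3 tested) were called higher. So were 3 of 10 inner arm chains (6 tested) and 3 of 8 spoke genes (7 tested). Likewise 3 of 3 genes of the nexin-dynein complex and 2 of 5 tektins, all tested, were called higher. Among A-iSC libraries the sum of astrocyte markers was 1407 to 2721 FPKM, against 171 to 193 in AST, and that of microglia markers was higher too (3562 to 4840, against 299 to 387). The sum of 9 fibroblast and mural cell markers was 41.0 to 71.4 FPKM in A-iSC, against 1884 to 2270 in AST, and that of 12 mitosis genes was 29.2 to 31.0, against 197 to 212. The part of these cell types and of cell division in the changes was not tested.

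**Figure D3:**
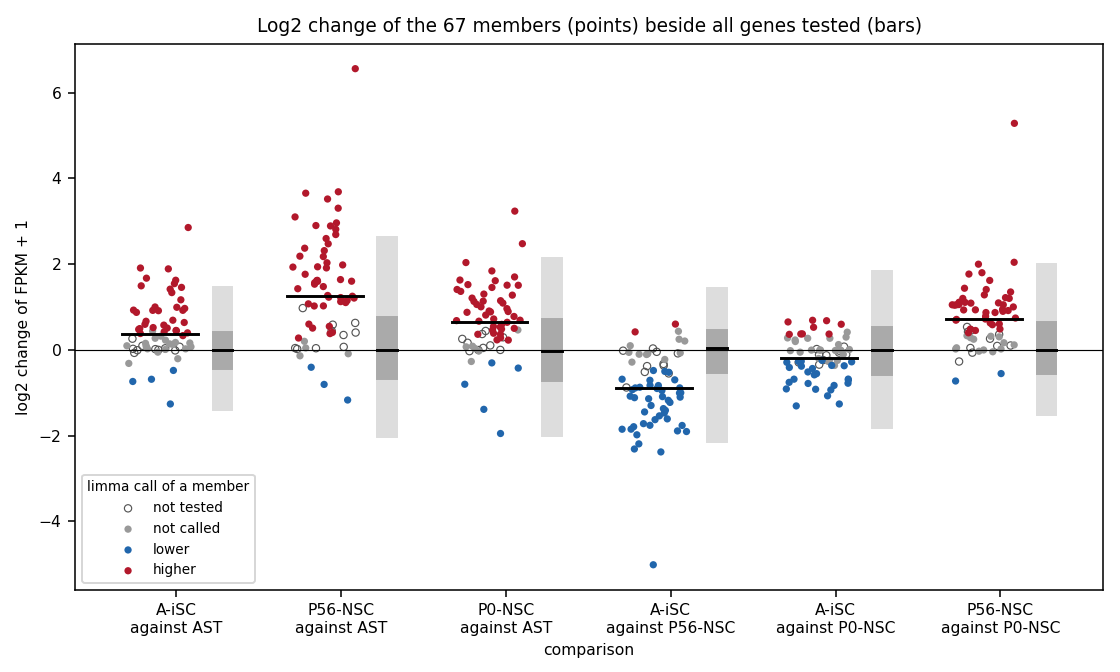
Log2 change of FPKM + 1 of each of the 67 genes (points, coloured by limma call) in the 6 comparisons, with their median (line); the grey bars show the range from the 5th to the 95th percentile (light) and the quartiles (dark) of all genes tested. The median is 0.38 in A-iSC against AST, 1.25 in P56-NSC against AST and -0.89 in A-iSC against P56-NSC.

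In P56-NSC against AST 50 of the 67 genes were called higher and 3 lower (Cfap36, Cfap298 and Rsph3a), where 37.1% of all genes tested were called higher and 37% lower. The median log2 change was 1.25, beside 0.00 for all genes tested, and 44 genes were called at 2-fold or more, where 20.3% of all genes tested were. The call of Cfap298 was lost without P56-NSC 1 (limma adjusted p = 0.0636) and without AST 2 (0.0581). In P0-NSC against AST 46 were called higher and 5 lower, where 35.9% and 38.3% of all genes tested were, with a median of 0.64 beside -0.04. The 5 lower genes were Cfap36, Cfap157, Cfap298, Rsph3a and Rsph3b, and the call of Rsph3b was lost without P0-NSC 2 (limma adjusted p = 0.0614) and without AST 2 (0.0716), and under total reads (-0.072, 0.54). That of Cfap298 was lost after quantile normalization (limma adjusted p = 0.0802), under total reads (0.279) and with voom (0.271). Both comparisons and that of A-iSC share the AST libraries.

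In A-iSC against P56-NSC 44 of the 67 genes were called lower and 2 higher (Dnah7b and Rsph3a), where 31.3% of all genes tested were called lower and 31.5% higher. The median log2 change was -0.89, beside 0.03 for all genes tested, and at 2-fold or more 30 genes were called lower and 0 higher, where 15.3% and 9.16% of all genes tested were. Under the deposited scaling the median gene in A-iSC had 29.0% of its P56-NSC level, and 12 genes had under 10% of it. The 7 genes at or above their P56-NSC level in A-iSC were Cfap97, Cfap97d1, Cfap410, Dnah7b, Rsph3a, Rsph3b and Rsph9. The authors' scaling bears on this comparison and on these percents, which were not computed under total reads. With libraries scaled by total reads the median of all genes moved to 0.44. Mitochondrial RNA took 16.5% to 17.6% of reads in P56-NSC and 2.94% to 7.03% in the other groups. Its part in the effect of the scaling was not tested. Of the calls on all genes tested 50.1% were higher under the deposited scaling and 73.4% under total reads, and 10 of the 67 genes were then called higher and 40 lower.

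**Figure D4:**
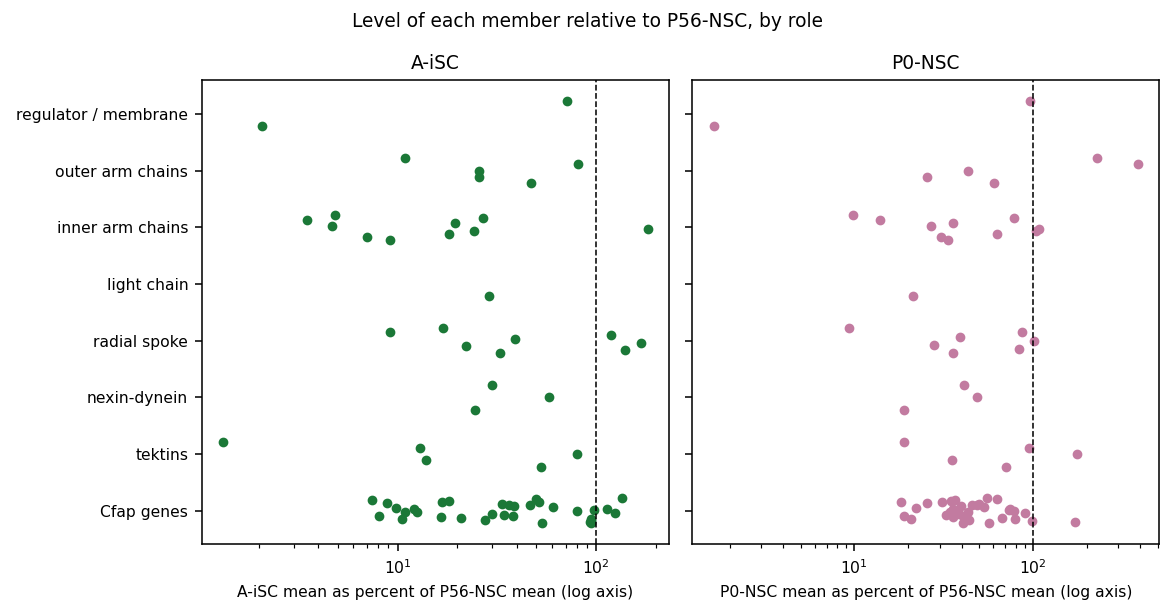
Mean of each gene in A-iSC (left) and P0-NSC (right) as percent of its P56-NSC mean (log axis), by role. The dashed line marks 100%. Under the deposited scaling 60 of the 67 genes lie below it in both groups, with medians of 29.0% in A-iSC and 41.1% in P0-NSC. Rsph6a, with a mean of 0 in P0-NSC, is not drawn in the right panel.

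In A-iSC against P0-NSC 26 of the 67 genes were called lower and 9 higher, where 34.7% of all genes tested were called lower and 32.6% higher. The median log2 change was -0.20, beside -0.01 for all genes tested. Of these 35 calls 20 remained without the 3 libraries that lean to short genes (A-iSC 1, A-iSC 2 and AST 2), and 28 after quantile normalization. Genes at 2-fold or more numbered 3 lower and 0 higher, where 14.5% and 13.3% of all genes tested were; the 3 were Cfap206 (-1.31 ± 0.14), Cfap65 (-1.26 ± 0.16) and Tekt5 (-1.07 ± 0.16). Of the 5 tektins 5 were called lower in A-iSC, and the call of Tekt1 was lost without A-iSC 1 (limma adjusted p = 0.0505) and without P0-NSC 1 (0.0523). Of the 8 spoke genes 3 were called higher (Rsph3a, Rsph3b and Rsph9), and the calls of Rsph3b and Rsph9 were lost without the short-gene libraries (limma adjusted p = 0.0783 and 0.115).

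In P56-NSC against P0-NSC 42 of the 67 genes were called higher and 2 lower (Cfap20 and Tekt2), where 35.3% and 33.9% of all genes tested were. The median log2 change was 0.71, beside 0.00 for all genes tested. By their names these groups differ in age, and the part of age in the changes was not tested. With libraries scaled by total reads the median of all genes moved to -0.45, the share of higher calls among all calls fell to 27.3%, against 51.0% under the deposited scaling, and 33 of the 67 genes were called higher and 9 lower. The call of Tekt2 (log2 change -0.55, limma adjusted p = 0.0486) was lost under 12 of the other settings (0.0546 to 0.156), among them each library left out other than A-iSC 2, A-iSC 3 and P56-NSC 3.

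Upstream of these genes stand regulators that commit a cell to many cilia: Gmnc and Mcidas, coregulators of E2F factors, their targets Ccno and Deup1, which amplify centrioles, and Myb and Trp73. Several were highest in P0-NSC. Mcidas had 0.0835, 0.0177 and 0.0314 FPKM in A-iSC, 0, 0.0262 and 0.0766 in P56-NSC, 3.55, 2.28 and 2.98 in P0-NSC and 0.1004, 0.08299 and 0.113 in AST. Deup1 had 0.165, 0.1397 and 0.225 FPKM in A-iSC, 0.748, 0.866 and 1.23 in P56-NSC, 7.68, 7.43 and 6.78 in P0-NSC and 0.0721, 0.134 and 0.0488 in AST. Ccno had 1.22, 1.45 and 0.715 FPKM in A-iSC, 0.248, 0.341 and 0.475 in P56-NSC, 7.46, 6.45 and 7.09 in P0-NSC and 0.467, 0.791 and 0.653 in AST. All P0-NSC libraries lay above all others. Each was higher in P0-NSC than in AST (log2 changes 1.83, 2.93 and 2.29, limma adjusted p = 1.52e-08, 1.69e-10 and 1.64e-08) and lower in P56-NSC than in P0-NSC (-1.92, -2.10 and -2.56, limma adjusted p = 1.51e-08, 3.92e-09 and 9.31e-09), opposite to most axonemal genes.

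Trp73 had 0.161, 0.167 and 0.249 FPKM in A-iSC, 2.25, 1.95 and 2.67 in P56-NSC, 7.15, 6.697 and 7.02 in P0-NSC and 0.183, 0.0891 and 0.156 in AST. Myb had 0.0555, 0.184 and 0.117 FPKM in A-iSC, 1.26, 0.914 and 1.51 in P56-NSC, 2.9996, 2.79 and 2.62 in P0-NSC and 0.0401, 0.0497 and 0.0121 in AST. Cdc20b, which hosts a microRNA cluster of multiciliated cells, had 0.0271, 0.04602 and 0.0408 FPKM in A-iSC, 0, 0.0341 and 0.0332 in P56-NSC, 7.63, 5.64 and 5.92 in P0-NSC and 0, 0.05395 and 0.0589 in AST. For all 3 genes the P0-NSC libraries were the highest, and no A-iSC or AST library passed 0.249 FPKM. Rfx3 and Rfx4 encode RFX factors. Rfx3 had 3.35, 3.05 and 5.34 FPKM in A-iSC, 3.54, 3.29 and 3.42 in P56-NSC, 7.95, 7.46 and 6.86 in P0-NSC and 0.941, 0.889 and 0.898 in AST. Rfx4 had 10.4, 11.4 and 14.99 FPKM in A-iSC, 12.9, 14.8 and 12.1 in P56-NSC, 4.19, 4.57 and 4.37 in P0-NSC and 4.75, 3.55 and 4.29 in AST. Both were higher in A-iSC than in AST (1.33 ± 0.14 and 1.34 ± 0.13, limma adjusted p = 6.73e-06 and 3.85e-06). In A-iSC against AST 7 of 20 measured regulators, 18 of them tested, were called higher and 2 lower, beside 28.1% and 30.8% of all genes tested. The counts were 9 and 2 in P56-NSC against AST (all genes 37.1% and 37%), 12 and 2 in P0-NSC against AST (35.9% and 38.3%), and 4 and 12 in P56-NSC against P0-NSC (35.3% and 33.9%). The share called higher in A-iSC against AST is near that of all genes.

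**Figure D5:**
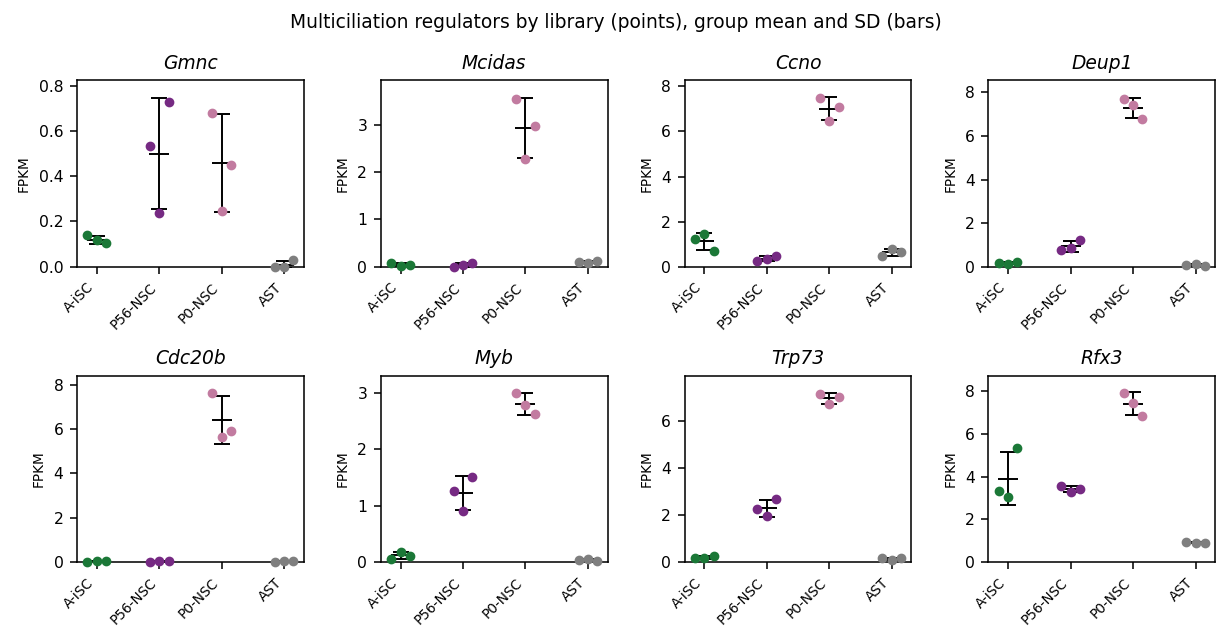
FPKM of 8 genes that regulate multiciliation in each library (points, 3 per group), with the group mean and SD; each panel has its own axis starting at 0. Mcidas, Ccno, Deup1, Cdc20b, Myb, Trp73 and Rfx3 are highest in the P0-NSC libraries, and Rfx3 is lowest in the AST libraries.

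Axonemal genes outside the name rule formed a further list. In A-iSC against AST 24 of 41 measured, 39 of them tested, were called higher and 1 lower, beside 28.1% and 30.8% of all genes tested. The counts were 34 and 3 in P56-NSC against AST (all genes 37.1% and 37%), 25 and 4 in P0-NSC against AST (35.9% and 38.3%), 2 and 25 in A-iSC against P56-NSC (31.5% and 31.3%), 11 and 14 in A-iSC against P0-NSC (32.6% and 34.7%), and 31 and 2 in P56-NSC against P0-NSC (35.3% and 33.9%). Meig1, known from sperm development, had 13.1, 11.1 and 8.73 FPKM in A-iSC, 14.3, 11.99 and 17.1 in P56-NSC, 6.39, 6.89 and 6.56 in P0-NSC and 0.866, 1.43 and 0.8795 in AST. Lrrc23, of the radial spoke, had 6.64, 7.33 and 4.15 FPKM in A-iSC, 28.4, 25.6 and 33.2 in P56-NSC, 22.1, 23.3 and 18.2 in P0-NSC and 1.07, 1.052 and 1.02 in AST. Both were higher in A-iSC than in AST (2.53 and 1.75, limma adjusted p = 8.05e-08 and 2.75e-06). Dnaic1, the outer arm intermediate chain, had 1.61, 1.86 and 0.925 FPKM in A-iSC, 12.3, 10.3 and 12.3 in P56-NSC, 1.37, 1.72 and 1.096 in P0-NSC and 1.35, 1.61 and 1.45 in AST. It was high in P56-NSC, and the other 3 groups overlapped. Stoml3 had 0.0231, 0.117 and 0.0867 FPKM in A-iSC, 9.27, 7.53 and 9.88 in P56-NSC, 0.102, 0.2396 and 0.135 in P0-NSC and 0.0277, 0.0688 and 0.02504 in AST, near 0 outside P56-NSC.

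Dynein arms are put together in the cytoplasm before they enter the cilium. In A-iSC against AST 6 of 13 measured assembly factors, 10 of them tested, were called higher and 3 lower, beside 28.1% and 30.8% of all genes tested. The counts were 6 and 4 in P56-NSC against AST (all genes 37.1% and 37%) and 4 and 2 in P0-NSC against AST (35.9% and 38.3%). Zmynd10 had 1.72, 2.13 and 1.24 FPKM in A-iSC, 8.605, 7.61 and 10.01 in P56-NSC, 7.17, 7.21 and 6.58 in P0-NSC and 0.4202, 0.417 and 0.278 in AST, in the order of most axonemal genes. The lower ones in A-iSC were Dnaaf5, Ruvbl1 and Ruvbl2, and the Ruvbl pair are general chaperones with roles outside cilia. Ruvbl1 had 16.4, 18.7 and 20.2 FPKM in A-iSC, 13.4, 14.8 and 14.2 in P56-NSC, 17.4, 20.04 and 17.3 in P0-NSC and 33.7, 38.8 and 32.4 in AST. Of 58 genes of intraflagellar transport and the primary cilium, which build the cilia of most cell types, all of them tested, 23 were called higher in A-iSC against AST and 5 lower. The counts were 20 and 11 in P56-NSC against AST and 22 and 25 in P0-NSC against AST, and both counts in P0-NSC and the higher count in P56-NSC are near the shares of all genes. Their summed level was 457 to 481 FPKM in A-iSC, 422 to 455 in P56-NSC, 387 to 405 in P0-NSC and 402 to 452 in AST.

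Markers of ependymal cells, 1 of which (Enkur) is also on another list, were counted too. Ciliary genes such as Ccdc153 are among them, so these counts are not independent of the axonemal genes. In A-iSC against AST 8 of 10 measured, 9 of them tested, were called higher, beside 28.1% of all genes tested. In P56-NSC against AST 9 were called higher (all genes 37.1%), in P0-NSC against AST 7 higher and 2 lower (35.9% and 38.3%), and in A-iSC against P56-NSC 9 lower (31.3%). Their sum was 144 to 186 FPKM in A-iSC, 385 to 525 in P56-NSC, 84.6 to 104 in P0-NSC and 64.0 to 74.8 in AST, and Mia was at 0 in all AST libraries. Ccdc153, itself a ciliary protein, had 3.31, 3.12 and 4.25 FPKM in A-iSC, 62.7, 51.8 and 67.8 in P56-NSC, 2.68, 6.17 and 1.57 in P0-NSC and 0.146, 0.509 and 0.291 in AST. Of 10 choroid plexus markers, 8 of them tested, 7 were called higher in P56-NSC against AST and 7 in P0-NSC against AST. Ttr, the choroid plexus transthyretin, had 0.4602, 1.56 and 0.755 FPKM in A-iSC, 2077, 1452 and 3120 in P56-NSC, 3747, 725 and 2265 in P0-NSC and 2.41, 2.37 and 2.95 in AST. The part of either cell type in the levels of the axonemal genes was not tested.

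Within groups the axonemal genes leaned to particular libraries. P56-NSC 2 held the lowest level of its group for 53 of the 67 genes (79.1%), beside 34.3% of all genes tested, and P56-NSC 3 the highest for 39 (58.2%, beside 35.1%). The choroid plexus sum had the same order in P56-NSC, with 2139, 1503 and 3193 FPKM in libraries 1 to 3, and so did the ependymal sum, with 454, 385 and 525. The ependymal list itself holds ciliary genes, so its order is not independent of that of the axonemal genes. P0-NSC 3 held the lowest level for 47 genes (70.1%, beside 32.9%) and P0-NSC 2 the highest for 35 (52.2%, beside 37.7%), whereas the choroid plexus sum was lowest in P0-NSC 2, with 3855, 751 and 2324 FPKM in libraries 1 to 3. The ependymal sum in P0-NSC was 104, 98.6 and 84.6 FPKM in the same libraries. It was lowest in P0-NSC 3, like most of the 67 genes, and highest in P0-NSC 1. In A-iSC no library held the lowest or the highest level for more than 33 genes, while A-iSC 1, A-iSC 2 and AST 2 leaned to short genes and A-iSC 3, AST 1 and AST 3 to long ones. Without the 3 libraries that lean to long genes, the calls of Dnah5 and Dnah6 in A-iSC against AST were lost (limma adjusted p = 0.0894 and 0.0666), and without the 3 that lean to short genes 31 of the 38 calls remained, and among those lost were Cfap43, Cfap65, Cfap298 and Tekt5 (limma adjusted p = 0.0827, 0.287, 0.0866 and 0.074).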

How the data were processed

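RNA of 12 libraries was sequenced, with 3 µg of RNA per sample, per the labels' protocols. The authors deposited 1 table of FPKM values per gene; per the submitters' processing notes tools included Bowtie 0.12.2, with mm8 and mm9 listed as builds, while the table's coordinates match GRCm38. The counting step and its use of strand are not given in the sources used here. Whole reads were recovered from the FPKM values within a tolerance of 0.01, giving 17077780 to 24452419 reads per library. Entries with no gene name (441) held 0.0957% to 0.156% of reads and were left out.

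Groups came from the sample titles. The 15747 genes that reached 1 FPKM in 3 or more libraries were tested with limma 3.58.1 in R 4.3.3 on log2(FPKM + 1), all 12 libraries in 1 fit with a mean-dependent spread, with Benjamini-Hochberg adjustment, called below 0.05. The fit was tested on simulated data. Values in every library are given for genes whose highest group mean is at least 5 FPKM, for Foxj1 and Tmem212 and for up to 3 genes per role; from other lists, at most 4 called genes with the largest change per list and comparison. Alternatives were another pseudocount, filters, scalings, voom on recovered reads, fewer groups, a replicate block, a gene length covariate and libraries left out. The genes and lists were chosen with earlier results of these data known, and a few genes (Cfap44, Cfap46, Cfap54, Cfap69, Ccdc153, Dnah7b and Tekt5) were named after their values were seen. Figures were drawn with matplotlib 3.10.9.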

Additional observations from a re-analysis of the deposited data

How the results depend on the processing

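Of 2986 values of 274 named changes under settings other than leaving out 1 library, 2893 kept direction and side of the threshold, 66 lost the call, 17 gained it and 10 changed sign; leaving out each library gave 3234, 47, 5 and 2 of 3288. Scaling by total reads moved the median log2 change of all genes to 0.12, -0.24, 0.16, 0.44 and -0.45 in A-iSC against AST, P56-NSC against AST, P0-NSC against AST, A-iSC against P56-NSC and P56-NSC against P0-NSC. The share of calls that were higher was then 60.9%, 38.7% and 58.8% in the first 3, against 47.7%, 50.1% and 48.4% under the deposited scaling. Under total reads and voom alike, axonemal genes called lower numbered 3 in P0-NSC against AST and 9 in P56-NSC against P0-NSC, and those called higher in A-iSC against P56-NSC numbered 10. That last count was 1 with no filter, with the mean filter and with only the 2 groups, 5 with the length covariate and without the long-gene libraries, and 1 to 5 with 1 library left out. In A-iSC against P0-NSC 17 were called lower with the mean filter, which tests fewer genes, and 19 both without the short-gene libraries and after quantile normalization. In P56-NSC against P0-NSC 1 was called lower with a pseudocount of 0.1 and with the replicate block, and 1 to 2 with 1 library left out. Signs changed for Foxj1 in A-iSC against AST (-0.24 without the long-gene libraries, and -0.099 to 0.092 over the libraries left out), for Dnah1 there (-0.087, quantile normalization), and, under total reads and voom, for Foxj1 in A-iSC against P56-NSC (0.065 and 0.067), Cfap20 in P56-NSC against AST (-0.028 and -0.030), and Cfap206 (-0.071 and -0.085) and Tekt1 (-0.13 and -0.15) in P56-NSC against P0-NSC; the cause was not tested. Replicate numbers did not pair the libraries across all groups: of 18 same-numbered pairs 3 had a correlation over 0.1. In every other group at once, 0 of 12 libraries correlated best with their own number. Within a single other group some did, such as A-iSC 3 with AST 3 (correlation 0.442). Depth limits the genes near 0 in AST.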
